A study of Mus musculus with 6 samples.

Results

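Necroptosis is a form of cell death in which the cell membrane is broken open from within, and 8 genes that carry it out or control it were followed in mouse embryonic stem (ES) cells that express the transcription factor SIM2. The genes are Ripk3, Ripk1, Mlkl, Casp8, Fadd, Cflar, Zbp1 and Cyld, and all 8 were found by symbol among the 22602 genes of the deposited expression table. Ripk3 was picked because it was among the genes with the largest rise in these same libraries, and the other 7 were picked by their role. The values of Ripk3 are therefore given as a description, with no test.

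Messenger RNA was sequenced from 3 cultures of clones A6, B8 and C4, each holding a Flag-tagged mouse Sim2 transgene at the ROSA26 locus, and from 3 cultures, named 0, 1 and 2, of the parental line EB3 (EBRTcH3), which lacks that transgene. In the clones the transgene is driven by a modified human CMV promoter that a tetracycline-regulated transactivator switches on when tetracycline is withdrawn. The cells were grown with serum and Leukemia Inhibitory Factor, and all 6 cultures were kept free of tetracycline for 26 h before RNA was taken. Each clone gave 1 culture and EB3 is a single line, so an effect of SIM2 and a trait that the clones acquired when they were made cannot be told apart, and the p-values below measure the spread between these cultures only.

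In the textbook pathway, a death receptor such as the TNF receptor brings RIPK1 and RIPK3 together. They join through a short sequence that both kinases share, the RHIM. Signals from a Toll-like receptor or a sensor of nucleic acids can also engage RIPK3. RIPK3 then phosphorylates MLKL, which moves to the membrane and permeates it. A complex of FADD, caspase-8 and the caspase-like protein cFLIP, the product of Cflar, cuts the kinases and keeps this route closed, and mice without caspase-8 or FADD die as embryos unless Ripk3 or Mlkl is also removed.

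The reads recovered over the genes of the table summed to between 25095861 and 28269340 per library. Sim2 itself was at 168 to 212 RPKM (reads per kilobase of cDNA, scaled to the size of each library) in the clones and at 0.0917 to 0.130 RPKM in EB3. All 5 ES cell markers were abundant, summing to 4807 to 5874 RPKM in the clones and 4876 to 6232 RPKM in EB3. Among them Zfp42 was lower in the clones (415 to 439 RPKM) than in EB3 (511 to 536 RPKM), with an adjusted p of 0.145 from limma. In the other ES cell markers the groups overlapped. Of 6 macrophage and leukocyte markers, cells in which this pathway is well known, 5 stayed under 1 RPKM in every library, with Emr1 and Lyz2 at 0 in all of them and Cd68 as the exception, and the list summed to 16.4 to 21.9 RPKM in the clones and 15.6 to 21.9 RPKM in EB3. Of 6 fibroblast markers 5 stayed under 1 RPKM, Thy1 being the exception, with sums of 10.9 to 14.05 and 10.2 to 13.4 RPKM. Of 6 primitive endoderm markers 4 stayed under 1 RPKM, Sox7 and Dab2 being the exceptions, none was at 0 throughout, and their sum was higher in the clones (4.15 to 5.12 RPKM) than in EB3 (2.79 to 3.36 RPKM). The part of these cells in the results was not tested. EB3-0 stood apart from the other two EB3 cultures by cDNA length: its median log2 ratio to them was 0.24 for tested genes under 2 kb and -0.31 for those of 4 kb and over.

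Ripk3 encodes the kinase at the centre of the pathway. It lies on chromosome 14, from 56403832 to 56407694 on the minus strand of mm9, with a cDNA of 1965 bases. The study lists genomic regions bound by SIM2 in at least 2 of the clones and assigns each to the closest gene or genes. Ripk3, Fadd and Cyld are the 3 of the 8 genes with such a region assigned. Ripk3 is the 1 member with a bound region in its promoter, while the regions assigned to Fadd and Cyld are intergenic. The 250 bases before the listed Ripk3 start are shown because that region lies within them. Capitals mark CACGTG, the E-box that bHLH proteins recognise, and the sequence is written 5′ to 3′ on the minus strand (mm9, chr14:56407695-56407944).

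Ripk3 promoter: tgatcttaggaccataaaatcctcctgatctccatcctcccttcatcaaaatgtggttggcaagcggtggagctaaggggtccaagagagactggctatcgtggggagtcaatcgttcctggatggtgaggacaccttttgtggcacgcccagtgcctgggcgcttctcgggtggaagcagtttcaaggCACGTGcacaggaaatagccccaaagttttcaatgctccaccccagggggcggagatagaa

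The E-box begins at base -61, counted back from the start, and falls inside the listed region. It contains on each strand the shorter core ACGTG, which the SIM2 dimer with ARNT is known to recognise. Of 22475 promoters of the same length in the table, 6.69% hold CACGTG and 17.9% hold ACGTG on either strand. Among the other 7 members, CACGTG was not present in this window and ACGTG was present in Fadd alone, at base -199. The Ripk3 window had a GC content of 54.0% and 8 CpG sites, against 69.6% and 32 in the Ripk1 window. A match describes letters and is not evidence of a site in use.

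Clone A6 had 25.1 RPKM of Ripk3, clone B8 25.8 and clone C4 16.4. Culture EB3-0 had 8.95 RPKM, EB3-1 had 7.67 and EB3-2 had 8.01. The 2 groups did not overlap, which is no separate evidence, since Ripk3 was picked for its rise in these libraries. C4, the lowest clone, also had the least Sim2, and a relation between the 2 levels was not tested. The clones averaged 22.4 ± 5.22 RPKM and EB3 averaged 8.21 ± 0.663 RPKM (SD, n = 3 each), a ratio of 2.73. The difference of mean log2(RPKM + 0.5) was 1.37 ± 0.18 (SE). On that scale A6 stood 1.56 above the EB3 mean, B8 1.60 and C4 0.96. Between 912 and 1305 reads per clone and 403 to 480 reads per EB3 culture lay behind these values, and no stretch of the Ripk3 transcript of at least 100 bases had a copy elsewhere in mm9 at 90% identity. In bulk RNA, more cells with the transcript and more transcript per cell cannot be told apart. Over all 11595 tested genes, limma called 40 (0.345%) higher in the clones and 41 (0.354%) lower; nothing about Ripk3 is read from these counts, since it was chosen on this difference.

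**Figure D1:**
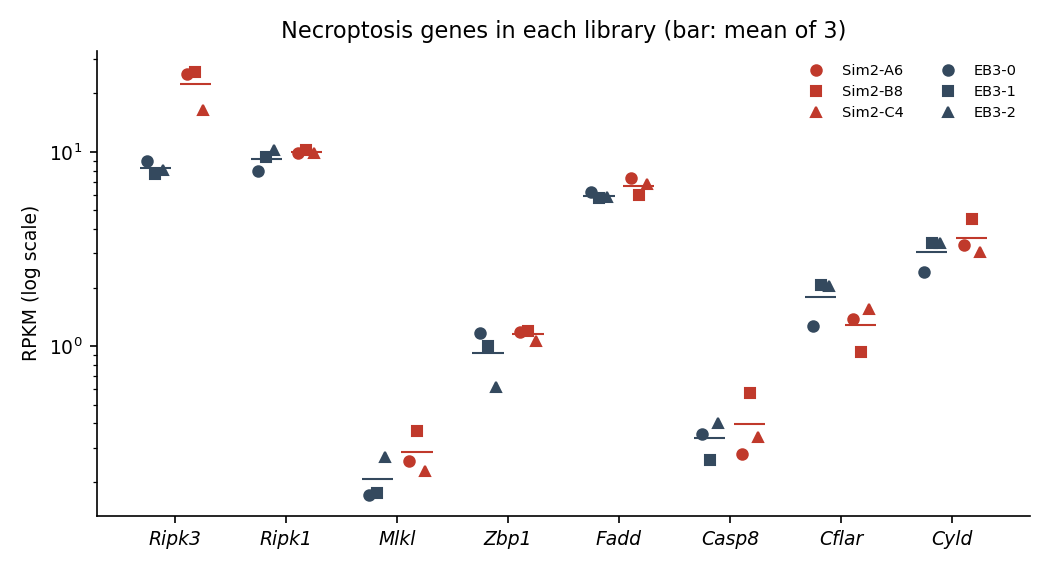
RPKM on a log axis of the 8 necroptosis genes, with 1 point per library (red, the Sim2 clones; dark blue, the EB3 cultures) and a bar at each group's mean of 3. The Ripk3 points of the clones (16.4 to 25.8 RPKM) lie above those of EB3 (7.67 to 8.95 RPKM), and in each of the other 7 genes the groups overlap.

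Ripk1, the kinase that recruits RIPK3 after death receptor signalling, was at 9.88, 10.2 and 9.90 RPKM in A6, B8 and C4. In EB3 it was at 8.005, 9.38 and 10.2 RPKM in cultures 0, 1 and 2, so the groups overlapped. The difference was 0.12 ± 0.12 (SE) on the log2 scale, with a 95% interval of -0.16 to 0.40 and an adjusted p of 0.648 from limma. It came to 0.03 when EB3-0 was left out and to 0.20 when EB3-2 was. Ripk1 lies on chromosome 13 (34094743 to 34127039), where a pseudogene on the other strand and a processed transcript on the same strand overlap it in the annotation, and counting was not stated to use strand.

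The ratio of the kinases differed between the groups with Ripk3. Dividing the RPKM of Ripk3 by that of Ripk1 within a library gave 2.54 for A6, 2.52 for B8 and 1.66 for C4. It gave 1.12 for EB3-0, 0.818 for EB3-1 and 0.787 for EB3-2. Ripk3 thus had the highest level of the 8 genes in the clones, above Ripk1 with no overlap. In EB3 Ripk1 came first by its mean, and the ranges of both kinases overlapped. The remaining order was the same in both groups: Fadd, Cyld, Cflar, Zbp1, Casp8 and Mlkl. Casp8 and Mlkl overlapped in both groups, and Cflar and Zbp1 in the clones.

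Mlkl, the executioner that RIPK3 phosphorylates, was the lowest of the 8. Clones A6, B8 and C4 had 0.258, 0.365 and 0.229 RPKM, from 11, 16 and 11 reads. In EB3-0, EB3-1 and EB3-2 it was 0.172, 0.176 and 0.270 RPKM, from 8, 8 and 12 reads. The groups overlapped, and an exact permutation test of the difference gave p = 0.3 (2-sided, 3 against 3, where the smallest possible is 0.1). With a mean of 0.245 RPKM it was under the minimum of 1 RPKM for the fit across genes. In every library there was far more Ripk3 than Mlkl per length of cDNA, from 70.6 to 97.6 times in the clones and from 29.7 to 52.0 times in EB3. Mlkl lies on chromosome 8 (113835700 to 113861803).

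Zbp1, a sensor of nucleic acids that carries the RHIM and can engage RIPK3 without RIPK1, was also low. It had 1.18, 1.19 and 1.07 RPKM in A6, B8 and C4, and 1.16, 0.997 and 0.617 RPKM in EB3-0, EB3-1 and EB3-2. The lowest value, in EB3-2, rested on 32 reads. The difference was 0.23 ± 0.20 (SE) with a 95% interval of -0.23 to 0.68 (limma, adjusted p = 0.595). Leaving out EB3-2 took it to 0.06, and leaving out EB3-0 to 0.35. The EB3 mean of Zbp1, 0.925 RPKM, was under the 1 RPKM minimum, so it entered the fit only through the clones. Zbp1 (chromosome 2, 173032114 to 173044423) is a known interferon-induced gene, and its promoter is shown because it is the 1 member whose window holds GAAA, any 2 bases and GAAA again, a core of the interferon-stimulated response element. Capitals mark the matches, which overlap each other and lie on the other strand, in the 250 bases before the start on the minus strand (mm9, chr2:173044424-173044673).

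Zbp1 promoter: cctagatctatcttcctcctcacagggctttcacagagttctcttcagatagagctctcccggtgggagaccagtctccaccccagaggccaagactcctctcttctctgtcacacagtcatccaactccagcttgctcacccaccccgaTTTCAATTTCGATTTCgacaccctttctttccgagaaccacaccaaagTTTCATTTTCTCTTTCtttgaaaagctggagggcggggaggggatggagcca

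There are 4 matches, beginning at bases -100, -94, -52 and -46. The pattern is present in 3.07% of the 22475 promoters. Of the other patterns searched, the GC box GGGCGG was present in the windows of Ripk3, Ripk1, Fadd, Cflar, Zbp1 and Cyld and in 43.5% of all promoters, and the kappa B consensus was present in that of Cyld and in 7.90% of all.

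Fadd, the adaptor that joins death receptors to caspase-8, was at 7.29, 5.97 and 6.85 RPKM in A6, B8 and C4. It was at 6.24, 5.78 and 5.82 RPKM in EB3-0, EB3-1 and EB3-2. B8 lay among the EB3 values. The difference was 0.16 ± 0.13 (SE), with a 95% interval of -0.14 to 0.45 (limma, adjusted p = 0.570), and it was 0.10 when A6 was left out. Fadd (chromosome 7, 151764228 to 151768341) is overlapped by an annotated transcript on the other strand.

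Casp8, the protease that restrains necroptosis, was close to the low end despite its role. Its levels were 0.277, 0.571 and 0.342 RPKM in A6, B8 and C4, and 0.354, 0.260 and 0.400 RPKM in EB3-0, EB3-1 and EB3-2. Between 18 and 38 reads lay behind each value, and the groups overlapped (exact permutation p = 0.7, 2-sided). Its mean of 0.368 RPKM was under the minimum for the fit. Fadd exceeded Casp8 in every library, from 10.5 times in B8 to 26.3 times in A6. Casp8 (chromosome 1, 58852218 to 58904347) follows Cflar on the same strand.

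Cflar, whose product resembles caspase-8 but lacks its protease activity, was the 1 tested member with a lower mean in the clones. It had 1.38, 0.932 and 1.56 RPKM in A6, B8 and C4, and 1.27, 2.07 and 2.03 RPKM in EB3-0, EB3-1 and EB3-2. EB3-0 lay among the clones. The difference of -0.35 ± 0.22 (SE) had a 95% interval of -0.86 to 0.15 and did not pass the test (limma, adjusted p = 0.451). With EB3-0 left out it was -0.53 (adjusted p = 0.163), and with B8 left out -0.20 (adjusted p = 0.743). Of the Cflar transcript (chromosome 1, 58770130 to 58815726), 18.7% of bases have a similar sequence elsewhere in the genome, so part of its reads may be misplaced.

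Cyld encodes a deubiquitinase that removes ubiquitin chains from RIPK1 and so favours the death-inducing complex. It was at 3.32, 4.49 and 3.04 RPKM in A6, B8 and C4, and at 2.41, 3.37 and 3.38 RPKM in EB3-0, EB3-1 and EB3-2. The clone B8 was the highest and EB3-0 the lowest, and the others lay close together. The difference was 0.21 ± 0.19 (SE), with a 95% interval of -0.23 to 0.65 (limma, adjusted p = 0.617). Leaving out EB3-0 brought this to 0.07, and leaving out B8 to 0.06. Cyld (chromosome 8, 91220943 to 91275844) has the longest cDNA of the 8, at 8234 bases, and EB3-0 was also the lowest EB3 culture in Ripk1 and Cflar, the other members with a cDNA of 4 kb or more.

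Of the 7 members other than Ripk3, 5 were expressed enough to be tested, and 0 were called by limma. Across all genes 81 of 11595 (0.699%) were called. At an unadjusted p under 0.05 there were 0 of the 5, where 17.8% of all tested genes passed, and the groups overlapped in all 5, where 26.1% of tested genes had groups that did not overlap. The median difference of the 5 was 0.16, against -0.01 over all tested genes. Mlkl and Casp8 were not part of this fit.

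**Figure D2:**
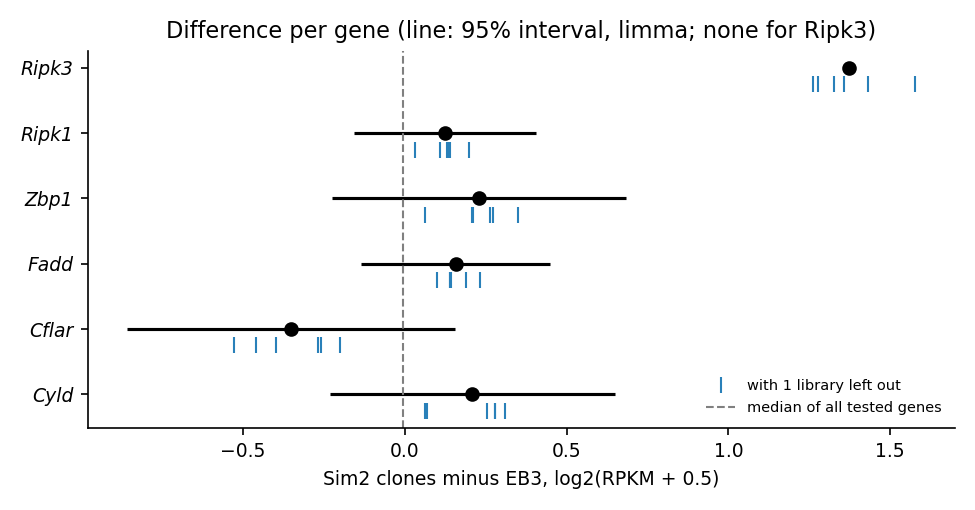
Difference between the Sim2 clones and EB3 on the log2(RPKM + 0.5) scale for the 6 tested genes, as a point, with its 95% interval from limma for the genes other than Ripk3, which was chosen on this difference. Blue ticks are the same value with 1 library left out, and the dashed line is the median of all tested genes. The ticks of Ripk3 run from 1.26 to 1.58, and the intervals of the other 5 genes include 0.

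The genes around the pathway were examined in 9 lists of textbook components. Of their 114 genes, 83 were tested, and 0 were called by limma in either direction, where 0.699% of all tested genes were called. At an unadjusted p under 0.05 there were 15 (18.1%, against 17.8% of all tested genes). In 20 (24.1%) the groups did not overlap, with the clones above EB3 in 11 and below it in 9, against 26.1% of all tested genes (12.7% higher and 13.4% lower). The median difference was 0.02.

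Upstream of the kinases, several receptor genes were expressed. Over the 6 libraries Tnfrsf1a was at 3.99 to 7.17 RPKM, Tnfrsf10b at 6.07 to 12.6 RPKM and Tnfrsf12a at 11.8 to 17.2 RPKM. The listed ligands and Fas were low. Tnf was at 0 in every library, Fasl and Tnfsf10 stayed at or below 0.126 RPKM, and the death receptor gene Fas was at 0.0714 to 0.403 RPKM. Tradd, the adaptor of the TNF receptor, had the largest difference among the 5 tested genes of the 9 death receptors and ligands, averaging 9.14 ± 1.87 RPKM over the clones against 5.62 ± 0.503 over EB3 (SD, n = 3 each). That is 0.64 ± 0.17 (SE) on the log2 scale, and its adjusted p was 0.114 (limma). The receptor gene Ltbr followed with 0.45 ± 0.24 (adjusted p = 0.366), which was 0.26 without B8 and 0.72 without C4.

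The listed ubiquitin-related genes and kinases that act on RIPK1 were nearly all expressed, with 18 of 20 genes tested. Of these, 6 (33.3%, against 17.8% of all tested genes) had an unadjusted p under 0.05. Among the 6, Chuk was lower in the clones (-0.35) and the others were higher. The median difference of the 18 was 0.09. The largest differences were in Birc3, which encodes the ubiquitin ligase cIAP2, and Tab1, a partner of the kinase TAK1. Birc3 averaged 3.12 ± 0.271 RPKM over the clones against 1.75 ± 0.478 over EB3 (SD, n = 3 each), a difference of 0.71 ± 0.19 (SE; limma, adjusted p = 0.117). Tab1 was at 13.9 ± 2.30 and 8.64 ± 1.14 RPKM, a difference of 0.65 ± 0.16 (adjusted p = 0.0982).

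Among 9 inputs from nucleic acids and Toll-like receptors, 5 were tested. Tmem173, which encodes the adaptor STING, had 3.51, 1.96 and 3.04 RPKM in A6, B8 and C4, and 0.828, 1.27 and 0.865 RPKM in EB3-0, EB3-1 and EB3-2. The groups did not overlap, and the difference of 1.15 ± 0.23 (SE) was the largest of the 83, with an adjusted p of 0.0716 (limma). It was called when each library's trend with cDNA length was removed (limma, adjusted p = 0.0407). The EB3 mean of Tmem173, 0.987 RPKM, was under the 1 RPKM minimum, so it entered the fit only through the clones. Its p-values are therefore no support for a rise. Ddx58, which encodes the RNA sensor RIG-I, was at 17.5 ± 1.14 RPKM over the clones against 23.2 ± 3.25 over EB3 (SD, n = 3 each), a difference of -0.39 ± 0.12 (SE; limma, adjusted p = 0.164). Tlr4 was at 0 in every library.

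Of 19 partners and regulators of RIPK3 and MLKL, 17 were tested, and their differences ran from -0.23 for Chmp2a to 0.27 for Pdcd6ip, genes of the membrane repair machinery (limma, adjusted p = 0.570 and 0.235). Of 17 interferon response genes 8 were tested, 0 of them with an unadjusted p under 0.05, and 8 of the 17 stayed under 1 RPKM in every library. The largest differences were -0.20 for Ifnar2 and -0.19 for Stat2 (adjusted p = 0.601 and 0.480).

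Of 12 NF-kB factors and targets 9 were tested. Rel, a subunit of NF-kB, averaged 1.55 ± 0.610 RPKM over the clones against 0.457 ± 0.200 over EB3 (SD, n = 3 each). The difference was 1.08 ± 0.26 (SE, adjusted p = 0.101 from limma). The EB3 mean of Rel was under the 1 RPKM minimum, so it entered the fit only through the clones. Its p-value is therefore no support for a rise. Nfkbie, an inhibitor of NF-kB, differed by 0.33 ± 0.15 (adjusted p = 0.309). Of 17 apoptosis genes 16 were tested. The largest differences were -0.85 ± 0.31 for Pmaip1, which encodes NOXA (adjusted p = 0.210; -0.44 without B8), and -0.59 ± 0.17 for Cycs, which encodes cytochrome c (adjusted p = 0.136). Cycs has many known processed copies, so its reads may be split. Of 8 pyroptosis genes 2 were tested: Gsdmd, the pore protein, with 0.70 ± 0.22 (adjusted p = 0.165), and Pycard with -0.08 ± 0.14 (adjusted p = 0.796). The other RIP kinases were all tested, with -0.23 ± 0.15 for Ripk2, -0.20 ± 0.16 for Ripk4 and 0.01 for Dstyk (limma, adjusted p = 0.462, 0.548 and 0.978).

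**Figure D3:**
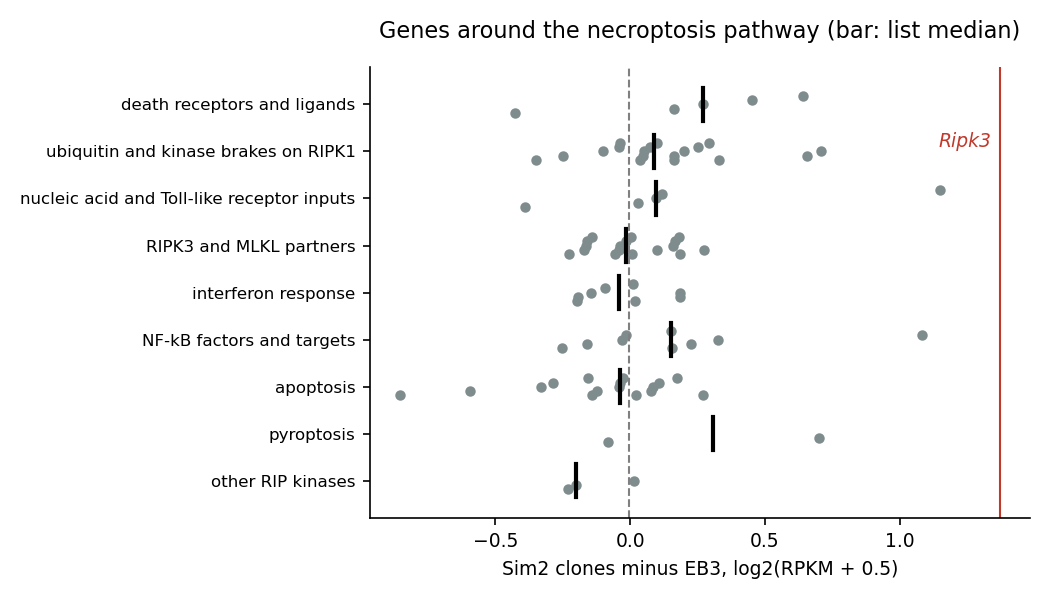
Differences between the Sim2 clones and EB3 on the log2(RPKM + 0.5) scale for the 83 tested genes of 9 lists, 1 point per gene, with a bar at each list's median. The dashed line is the median of all tested genes. The red line marks Ripk3 at 1.37, which was picked for its rise, so its place above the listed genes is no result. The highest listed gene, Tmem173, is at 1.15 and entered the fit only through the clones.

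These counts moved with EB3-0. Without it 6 of the 83 listed genes (7.23%) were called by limma, near the 694 (5.99%) called over all tested genes. They were Tab1, Gsdmd and Hsp90ab1 higher in the clones, and Birc2, Chuk and Ddx58 lower. None of the 5 tested members other than Ripk3 was among them.

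The neighbours of Ripk3 on chromosome 14 were compared to see whether its difference was shared along the chromosome. Ripk3 was picked for its rise, so its standing above them was set by that choice and is no result. Of 50 other genes that start within 500 kb of the Ripk3 start, 27 were tested and 0 were called by limma. Over all tested genes only 0.699% were called, so 0 of 27 is near that share. At an unadjusted p under 0.05 there were 3 (Pck2, Tgm1 and Nynrin), or 11.1% against 17.8% of all tested genes. In 6 (22.2%, against 26.1%) the groups did not overlap, 3 of them with the clones above EB3 and 3 below. Their median difference was 0.05, and the values ran from -0.40 (Pck2) to 0.70 (Nynrin). The lowest adjusted p was that of Tgm1, at 57.1 to 77.5 RPKM in the clones and 43.2 to 45.0 RPKM in EB3. Its difference was 0.56 ± 0.12 (SE), with an adjusted p of 0.0803 from limma. On the side behind the 3′ end of Ripk3, Adcy4 stayed at 0.0451 to 0.141 RPKM, too low to test, and Ltb4r1 differed by 0.15 ± 0.18 (SE; limma, adjusted p = 0.724; 0.02 to 0.24 with 1 library left out). On the promoter side, Nfatc4 differed by 0.33 ± 0.22 (adjusted p = 0.489; 0.11 without B8 and 0.57 without C4) and Nynrin by 0.70 ± 0.17 (adjusted p = 0.101). Nynrin had 9.98, 13.3 and 8.99 RPKM in A6, B8 and C4 and 5.45, 6.96 and 6.67 RPKM in EB3-0, EB3-1 and EB3-2. The next tested genes on that side were Khnyn and Sdr39u1. Khnyn differed by 0.40 ± 0.20 (limma, adjusted p = 0.336) with no overlap of the groups, and Sdr39u1 by 0.08 ± 0.18 (adjusted p = 0.854).

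**Figure D4:**
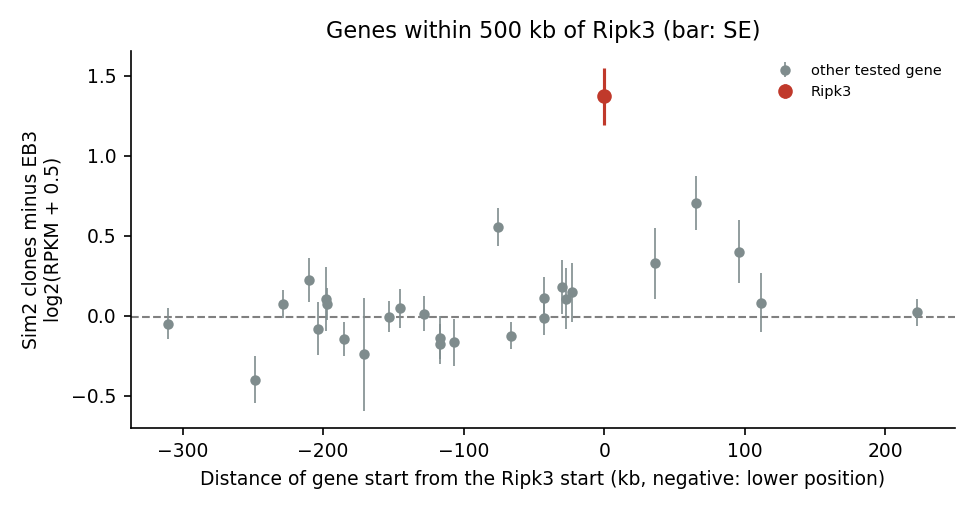
Difference between the Sim2 clones and EB3 on the log2(RPKM + 0.5) scale, with its SE, of the 27 tested genes that start within 500 kb of Ripk3, against the distance of their start from that of Ripk3 in kb. The highest neighbour, Nynrin, is at 0.70 and Ripk3 is at 1.37. Ripk3 was picked for its rise, so its place above the neighbours is no result.

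Besides Ripk3, 30 genes of the table had a listed SIM2 region in their promoter, and 22 were tested. Of these 22, 14 were higher in the clones, where 49.1% of all tested genes were higher. Their median difference was 0.07, and 0 were called by limma, where 0.699% of all tested genes were called. At an unadjusted p under 0.05 there were 9 (40.9%, against 17.8% of all tested genes). These 9 went in both directions: Cnbp (-0.34), Gjc1 (-0.33) and Mtf2 (-0.39) were lower in the clones and the others higher. A link between a bound promoter and expression was not tested.

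Across all tested genes, the profiles most like that of Ripk3 over the 6 libraries were those of Limch1, Rcsd1, Trim54, Cbr3 and Lgals9. Likeness was the root-mean-square difference between the 6 log2 ratios of each gene to its EB3 mean, and it was 0.08 for Limch1 and 0.20 for Lgals9. Limch1 had 2.60, 2.96 and 1.70 RPKM in A6, B8 and C4 and 0.627 to 0.674 RPKM in EB3. The selection on likeness fixed the shape of these profiles, so nothing further is read from it.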

How the data were processed

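Per the labels and the study's methods, the authors mapped paired reads to mm9 with BWA at default parameters and deposited exon coverage per RefSeq gene as RPKM for each library; versions and the use of strand were not given in the sources used here. The authors' edgeR results were not used. RPKM were transformed to log2(RPKM + 0.5), which understates changes of low genes. Genes averaging 1 RPKM or more over the 6 libraries, 11595 in all, were tested with limma (version 3.58.1, R 4.3.3; eBayes with trend, no covariate), adjusted by Benjamini-Hochberg over all of them and called under 0.05. The fit was tested on simulated data. Reads were recovered as whole multiples of each library's RPKM step, within 0.05 for 100% of values. Whether both mates of a pair were counted was not stated. In every library more genes had 2 reads than 1, for example 742 against 199 in clone A6 and 724 against 177 in EB3-0. The fragments are therefore likely fewer than the reads given. Precision is set by these reads and by 3 cultures a group.

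Genes named were the 8 members and the largest called or otherwise the 2 largest differences of each list. The 2 nearest neighbours of Ripk3 on each side and the 5 profiles most like it were also named. Other genes were named after their values were seen: Dstyk, Zfp42, Chuk, Tnfrsf1a, Tnfrsf10b, Tnfrsf12a, Pck2, Tgm1, Khnyn, Sdr39u1, Cnbp, Gjc1, Mtf2, genes at or near 0 and genes called without EB3-0. Members, lists and motifs were chosen with earlier results of these data known. Of 145 listed genes, 5 were matched by an older symbol. Positions are 1-based in mm9, and promoters and transcripts came from an mm9 genome and annotation, in which all 8 members overlap a gene of the same name. Copies were sought with blastn (version 2.17.0). Alternatives covered the pseudocount, filter, scaling, cDNA length, EB3-1 with EB3-2 averaged, the trend, and each library left out. Every per-library column was used.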

Additional observations from a re-analysis of the deposited data

How the results depend on the processing

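The difference of Ripk3 stayed between 1.32 and 1.41 (log2) over the settings with all libraries. With 1 library left out it was between 1.26 (without B8) and 1.58 (without C4). Ripk3 was chosen on this difference in these same libraries, so these ranges are no separate evidence for it. Of the 5 tested members other than Ripk3, 0 were called by limma as reported or under any alternative. As reported, 0.699% of all tested genes were called. Each of the 5 kept its direction, and the lowest adjusted p from limma was 0.163 (Cflar, without EB3-0). The stricter filter of 5 RPKM left Cflar, Zbp1 and Cyld untested. The number of called genes over the whole table moved from 81 to 23 with no filter, 250 with the cDNA length trend removed, 6 with EB3-1 and EB3-2 averaged, 30 with no intensity trend, and 6 to 694 with 1 library left out; the cause was not tested. Called pathway genes moved from 0 to 1 with the length trend removed (Tmem173), and to 0 to 6 with 1 library left out. The sign of Pycard turned without C4 or EB3-0 (0.0015 and 0.035, within a range of -0.18 to 0.03 over the libraries left out). No paired analysis was possible because the clones and the EB3 cultures share no replicate numbers. With 1 library left out, the difference ran from -0.32 to -0.03 for Chmp2a, -0.33 to -0.11 for Ifnar2, -0.34 to -0.14 for Ripk2 and -0.32 to -0.08 for Ripk4. Mlkl and Casp8 had 8 to 38 reads per library.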
